A study of Rattus norvegicus with 6 samples.

Results

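The circadian clock genes are 10 genes of the molecular clock, which were found among the probe sets of the array by their gene symbol: Bmal1 (also written Arntl), Clock, Per1, Per2, Per3, Cry1, Nr1d1, Nr1d2, Dbp and Tef. They were represented by 19 of the 31042 probe sets that are not array controls, and 15 of these, from 9 genes, were bright enough to be tested. Whole-kidney RNA came from male rats of the Dahl salt-sensitive strain (Dahl S), a model in which a high-salt diet raises blood pressure, and of the Lewis strain. There were 3 rats per strain, with 1 array per rat, and all 6 rats ate food with 8% NaCl for 8 weeks from the age of 5 weeks. Because both strains received salt, what is inherited and what is a response to salt cannot be told apart. Each rat was sampled once, and for the hour of collection no value is given in the sources used here.

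The clock of mammalian cells is a transcriptional feedback loop. The proteins BMAL1 and CLOCK bind E-box sequences together and switch on the Per and Cry genes, whose products return to the nucleus and inhibit them, and also the Nr1d1 and Nr1d2 genes, whose products (REV-ERB alpha and beta) repress Bmal1 through ROR elements. The same E-box drive reaches Dbp and Tef, PAR bZIP transcription factors that pass the rhythm on to other genes through D-boxes. In the kidney the clock is known for daily rhythms of sodium transport and urine output. In peripheral tissues of nocturnal rodents, Bmal1, Clock and Cry1 transcripts are highest towards the end of the active phase, whereas Nr1d1, Nr1d2, Dbp, Tef and the Per transcripts are highest in the later rest phase or around its end. The question asked here was whether these groups of genes differed between the strains in opposite directions, as genes of opposite phase do when a clock is read at another phase.

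The sequences that this loop uses can be read next to the start sites of several of these genes, and 4 windows are shown because they carry an element of the loop. Windows of 250 bases before to 50 after a start site (RefSeq, GRCr8) were found for 9 of the 10 genes, in 11 windows. The letters searched, on both strands, were the E-box CACGTG, its variant CACGTT, the D-boxes TTATGTAA and TTACGTAA, the ROR element core as TAGGTCA or TGGGTCA, and the cyclic AMP element TGACGTCA. Capitals mark each match, which is a match of letters and not a measured binding site:
Bmal1, chr1:176766078-176766377, plus strand: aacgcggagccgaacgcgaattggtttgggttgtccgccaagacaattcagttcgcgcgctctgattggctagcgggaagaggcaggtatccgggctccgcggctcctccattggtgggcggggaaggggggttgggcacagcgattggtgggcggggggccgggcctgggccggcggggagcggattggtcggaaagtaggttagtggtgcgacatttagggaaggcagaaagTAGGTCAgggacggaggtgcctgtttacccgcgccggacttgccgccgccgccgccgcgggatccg
Nr1d1, chr10:84229405-84229704, minus strand: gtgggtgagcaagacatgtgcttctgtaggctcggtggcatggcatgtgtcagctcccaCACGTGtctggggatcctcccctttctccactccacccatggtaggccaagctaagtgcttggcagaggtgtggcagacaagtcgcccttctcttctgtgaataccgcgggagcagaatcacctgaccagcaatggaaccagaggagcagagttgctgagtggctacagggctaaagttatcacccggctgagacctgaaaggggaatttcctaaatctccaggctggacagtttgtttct
Per2, chr9:99496944-99497243, minus strand: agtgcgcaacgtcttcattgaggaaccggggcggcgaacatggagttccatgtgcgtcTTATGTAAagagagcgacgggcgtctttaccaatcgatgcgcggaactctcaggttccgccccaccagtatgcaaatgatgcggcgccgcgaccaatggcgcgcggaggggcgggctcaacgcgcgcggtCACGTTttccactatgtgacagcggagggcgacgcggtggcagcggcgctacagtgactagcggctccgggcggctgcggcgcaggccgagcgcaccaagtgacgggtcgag
Tef, chr7:115206577-115206876, plus strand: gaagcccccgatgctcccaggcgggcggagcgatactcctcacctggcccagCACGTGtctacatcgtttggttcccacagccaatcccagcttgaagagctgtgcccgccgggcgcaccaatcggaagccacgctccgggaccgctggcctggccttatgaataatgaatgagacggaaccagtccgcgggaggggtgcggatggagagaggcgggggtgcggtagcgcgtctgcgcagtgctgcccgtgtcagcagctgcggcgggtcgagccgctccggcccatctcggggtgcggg
In the Bmal1 window the capitals are a ROR element core, whose first base lies at position -16 from the start site. In the windows of Nr1d1 and Tef they are an E-box, at -191 and -198. The Per2 window holds a D-box at -192 and the E-box variant at -62. A further Nr1d1 window, at another start site, holds the E-box variant on the opposite strand at -174. Among all 33469 windows in the table, 6.42% hold the E-box, 4.83% its variant, 1.01% a D-box, 6.6% a ROR element core and 1.83% the cyclic AMP element. These letters are not in the other windows of the members. The windows of Per1, Per3 and Tef, the Nr1d1 window shown and a Clock window lie inside the annotated gene bodies, at inner start sites.

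RNA of the Per1, Per2, REV-ERB and PAR bZIP genes was less abundant in kidneys of Dahl S rats than in those of Lewis rats, and RNA of Bmal1 was more abundant. Nr1d1 was 1.94-fold lower, Per1 1.75-fold, Dbp 1.71-fold and Per2 1.59-fold lower, while Bmal1 was 1.32-fold higher, and Clock and Cry1 did not pass the test. Of the 15 member probe sets tested, 1 was higher in Dahl S, 9 were lower and 5 did not pass an adjusted p of 0.05 (limma, Benjamini-Hochberg over 15797 probe sets). The filter on low values asks for 3 arrays above the overall median, and 4 of the 15 (that of Nr1d1, 1370540_at of Nr1d2, and 1369919_at and 1385374_at of Tef) met it on all 3 Lewis arrays but not on all 3 Dahl S arrays, so that a strain difference was favoured by the choice. Of the 11 above the median on all 6 arrays, tested among themselves and other such probe sets, 1 was higher and 6 were lower. Of all 13991 probe sets that met this stricter rule, 1116 were higher and 1069 lower. Over all 15797 probe sets tested under the main filter, 8.5% were called higher and 7.75% lower, 16.2% in all. The strain ranges did not overlap for 11 of the 15, with Dahl S above in 1 and below in 10, against 17.6% above and 16.9% below over all probe sets, 34.4% in all. The median log2 difference, Dahl S minus Lewis, was -0.50 over the 15 probe sets, against 0.00 over all. By gene, with the brightest tested probe set standing for each, 1 of 9 was higher, 6 were lower and 2 did not pass, against 9.04% higher and 7.62% lower, 16.7% in all, of 9540 genes.

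Values are intensities after quantile normalization, which brings all arrays to the same distribution, so a difference is relative to the typical probe set. In the deposited intensities without normalization the median log2 difference over the whole set tested was 0.41. There the members of the Per, REV-ERB and PAR bZIP group that were tested still differed by -0.58 to -0.04, but no member passed the threshold in limma, and 2 higher and 1 lower passed an unadjusted p of 0.05. In whole kidney, fewer cells of a type and less RNA per cell cannot be told apart. The labels do not say that the rats came from separate litters or cohorts, so the p-values measure the spread between these samples only, and an exact permutation test of 3 against 3 cannot give a two-sided p below 0.1.

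**Figure D1:**
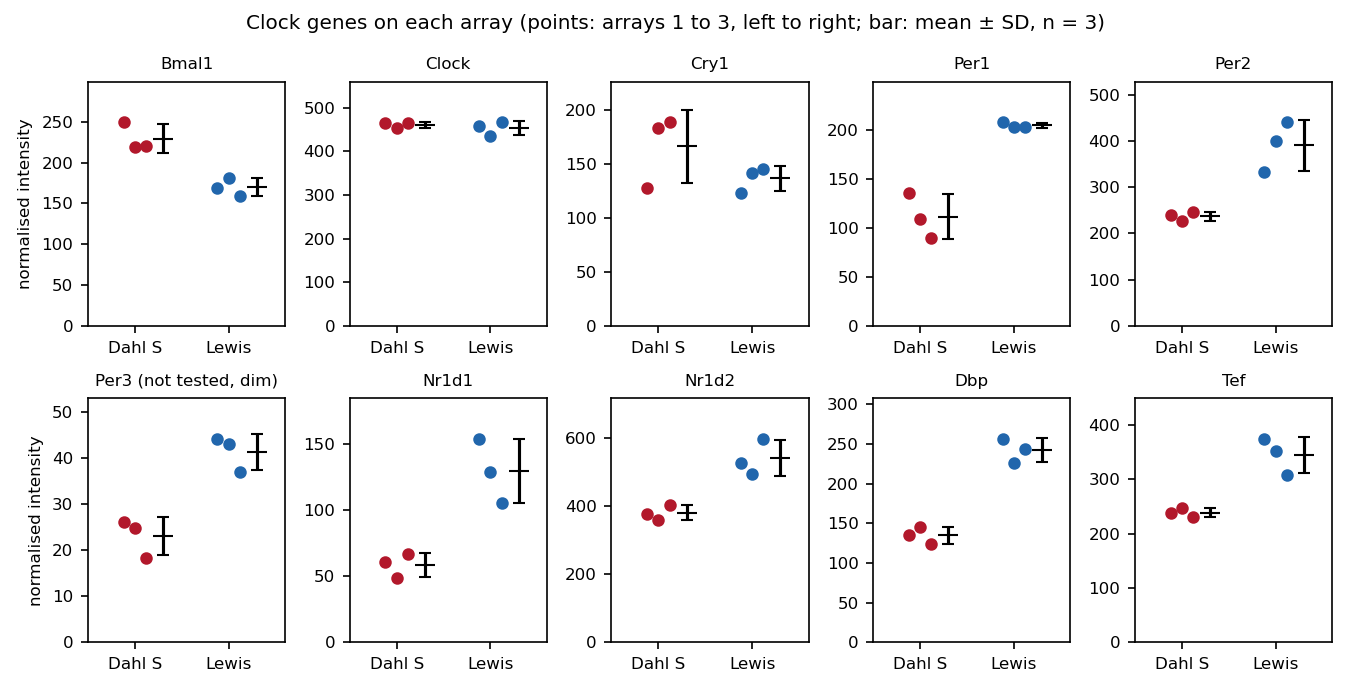
Normalised intensity (vertical axis, linear, from 0) of each clock gene on the 3 Dahl S arrays (red) and the 3 Lewis arrays (blue), with the mean and SD of each strain in black; the brightest tested probe set of each gene is shown, and the brighter of 2 untested probe sets for Per3. In Bmal1 the Dahl S points lie above the Lewis points, in Clock and Cry1 the strains overlap, and in the other 7 genes the Dahl S points lie below.

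Among the activators, Bmal1 encodes the partner without which the clock loop of mammals stops. Its single probe set, 1370510_a_at, had normalised intensities of 249.5, 219 and 220.3 on Dahl S arrays 1, 2 and 3, against 169, 181 and 159.5 on Lewis arrays 1, 2 and 3. All Dahl S values lay above all Lewis values. The log2 difference was 0.40 (SE 0.10, adjusted p = 0.018, limma). Leaving out Dahl S array 1 gave 0.34 with an adjusted p of 0.097, and leaving out array 3 of the same strain gave 0.43 with an adjusted p of 0.054, so both ended the call.

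Clock, which encodes the partner of BMAL1 in the activating complex, was nearly flat between the strains. Its brightest probe set, 1390199_at, read 464, 452.5 and 465 in Dahl S and 458, 435 and 467 in Lewis, so that the ranges overlapped. The difference was 0.02 (SE 0.08), with a 95% interval of -0.15 to 0.20, and the other tested probe sets gave -0.10 (SE 0.11) and -0.11 (SE 0.12). The remaining Clock probe set, 1369168_a_at, was dim, at 32.3 to 42.6 in Dahl S and 31.0 to 55.2 in Lewis, and was not tested.

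The Period genes encode the repressors that bind CLOCK and BMAL1. Per1, which also responds directly to glucocorticoids, read 136, 109 and 89.7 in Dahl S, against 208, 203 and 202 in Lewis (1374855_at). The Lewis rats were almost alike, the Dahl S rats spread more widely, and the strains did not overlap. The log2 difference was -0.81 (SE 0.13, adjusted p = 0.0012).

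Per2 read 240.2, 227 and 246 in Dahl S, against 332, 399.9 and 441 in Lewis (1368303_at), with a difference of -0.67 (SE 0.11, adjusted p = 0.0011). Here it was the Lewis rats that spread more widely, again with no overlap. A dim probe set of Per2, 1378560_at, was not tested and ran from 6.72 to 46.2 in Dahl S and from 20.2 to 73.8 in Lewis, with overlapping ranges. Both probe sets of Per3, the least studied Period gene, were too dim to be tested. The brighter, 1378745_at, read 26.2, 24.9 and 18.4 in Dahl S, against 44.3, 43.1 and 37.0 in Lewis, all below in Dahl S. In a fit without the filter on low values it differed by -0.55 (SE 0.16, adjusted p = 0.088, limma), and the dimmer one, 1388239_at, by 0.02 (SE 0.19).

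Cry1, a cryptochrome repressor gene that carries E-box and ROR input and peaks later than the Per genes, read 127.5, 183 and 189 in Dahl S, against 123, 142 and 145 in Lewis (1392640_at). Dahl S arrays 2 and 3 lay above every Lewis array, and Dahl S array 1 lay among them. The difference was 0.24 (SE 0.14, adjusted p = 0.28), with a 95% interval of -0.06 to 0.55. In the GRCr8 annotation another gene model overlaps Cry1, and models of long non-coding RNA overlap Clock and Per2.

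The REV-ERB genes, repressors of Bmal1, were lower in Dahl S, and Nr1d1 had the lowest estimate of the members. Nr1d1 read 61.0, 48.6 and 66.7 in Dahl S, against 154, 129 and 106 in Lewis (1370816_at). The lowest Lewis rat was above the highest Dahl S rat by a wide margin, although the Lewis rats differed among themselves. The log2 difference was -0.96 (SE 0.15, adjusted p = 0.001). This probe set exceeded the overall median on all 3 Lewis arrays but on only 1 Dahl S array, so the filter favoured a difference. The 3' end of Nr1d1 overlaps that of Thra, a thyroid hormone receptor gene on the opposite strand, in the rat as in other mammals.

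Nr1d2, the partner gene of Nr1d1, had 3 tested probe sets, of which 1370540_at met the filter through the Lewis arrays alone. Both others were lower in Dahl S with no overlap of the strains. The brightest, 1390430_at, read 378, 361 and 405 in Dahl S, against 528, 496 and 598.5 in Lewis, with a difference of -0.48 (SE 0.09, adjusted p = 0.0037). For 1370541_at the difference was -0.60 (SE 0.09, adjusted p = 0.00088). The dim 1370540_at read 48.1, 39.8 and 48.0 in Dahl S, against 90.4, 67.8 and 82.9 in Lewis. These probe sets target the same gene and are not independent of each other.

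The PAR bZIP genes lie directly downstream of the E-box drive. Dbp, whose transcript swings widely over the day in rodent kidney and liver, read 135, 145 and 124 in Dahl S, against 256.5, 226 and 244 in Lewis (1387874_at). The strains were well apart and each was tight, and the difference of -0.78 (SE 0.10) had the smallest adjusted p of the members (0.00025). The brightest probe set of Tef, 1390819_at, read 238, 248 and 231 in Dahl S, against 375, 352 and 308.5 in Lewis, with a difference of -0.50 (SE 0.10, adjusted p = 0.004).

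A dimmer probe set of Tef, 1369919_at, gave -0.71 (SE 0.14, adjusted p = 0.0048). The third, 1385374_at, differed by -0.49 (SE 0.16) and did not pass (adjusted p = 0.055). It passed when Dahl S array 2 was left out (-0.60, adjusted p = 0.043) or Lewis array 1 (-0.56, adjusted p = 0.046). All Dahl S values lay below all Lewis values in each of the 3 Tef probe sets. The dimmer probe sets exceeded the overall median on all 3 Lewis arrays but not on all 3 Dahl S arrays, so the filter favoured a difference in them.

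**Figure D2:**
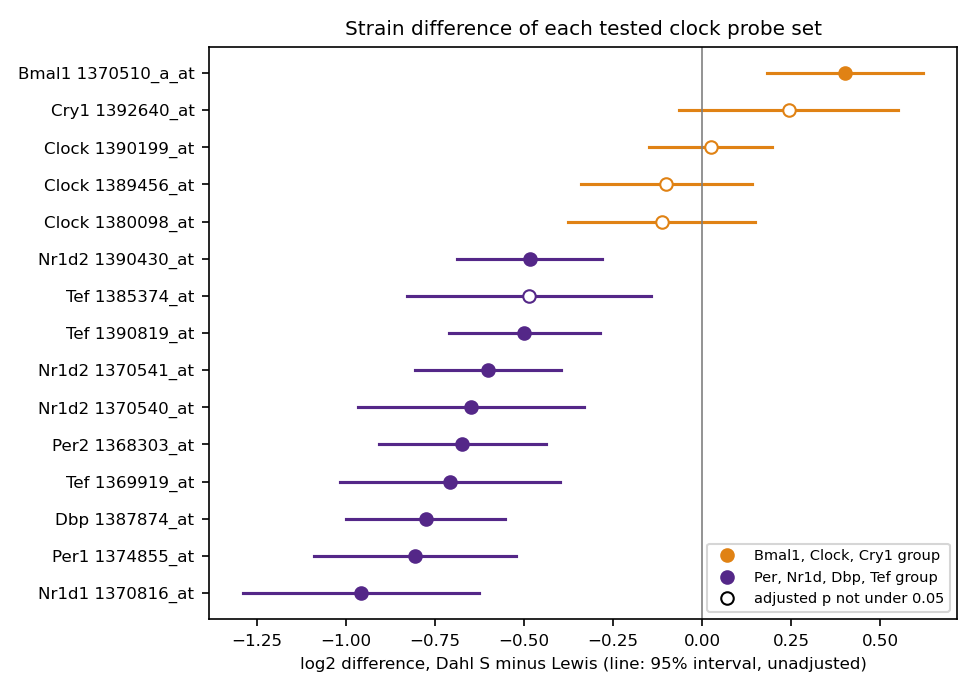
Log2 difference, Dahl S minus Lewis (horizontal axis), of each of the 15 tested clock probe sets, with its 95% interval from the limma fit; filled points passed an adjusted p of 0.05. The 10 probe sets of Per, Nr1d, Dbp and Tef genes lie between -0.96 and -0.48, and those of Bmal1, Clock and Cry1 between -0.11 and 0.40.

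Set out by phase, 1 group of members was lower in Dahl S and the other had no common direction. Of 10 tested probe sets of the genes that peak around the later rest phase (Per1, Per2, Nr1d1, Nr1d2, Dbp and Tef), 9 were lower in Dahl S and 1 did not pass, with a median of -0.66, and the 6 of them above the overall median on all 6 arrays were lower under the stricter filter too. Of 5 probe sets of the genes that peak towards the end of the active phase (Bmal1, Clock and Cry1), 1 was higher and 4 did not pass, with a median of 0.02. The Bmal1 and Per, REV-ERB and PAR bZIP differences were thus of opposite sign, and in Clock and Cry1 no difference passed. Among the members, the opposite direction rests on the single Bmal1 probe set, whose call was lost without Dahl S array 1 or 3. Nfil3, which is not a member, is described with the other clock genes below. The dimmer tested Clock probe sets lay below 0 (-0.10 and -0.11). With a single time of sampling, a clock at another phase, a rhythm of another amplitude or mean level and kidneys collected at different hours cannot be told apart.

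The same values can be set out rat by rat. Relative to each gene's mean over the 6 arrays, the median of the 6 genes that peak in the later rest phase was -0.29, -0.36 and -0.31 on Dahl S arrays 1, 2 and 3, against 0.40, 0.34 and 0.39 on Lewis arrays 1, 2 and 3 (log2). The median of Bmal1, Clock and Cry1 was 0.02, 0.14 and 0.15 in Dahl S, against -0.20, -0.07 and -0.04 in Lewis. Each of the 6 genes already had strain ranges that did not overlap, so the first of these summaries had to separate the strains and adds no support. In the second the gap between the strains was narrow.

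Within a strain the genes of the larger group did not rank the rats alike. In Lewis, array 1 had the highest Nr1d1, Dbp and Tef but the lowest Per2, and array 3 had the highest Per2 and Nr1d2 but the lowest Nr1d1 and Tef. In Dahl S, array 1 had the highest Per1 and Bmal1 and the lowest Cry1, and array 2 had the lowest Nr1d1, Per2 and Nr1d2 but the highest Dbp and Tef. With 3 rats per strain these orders are a description only.

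**Figure D3:**
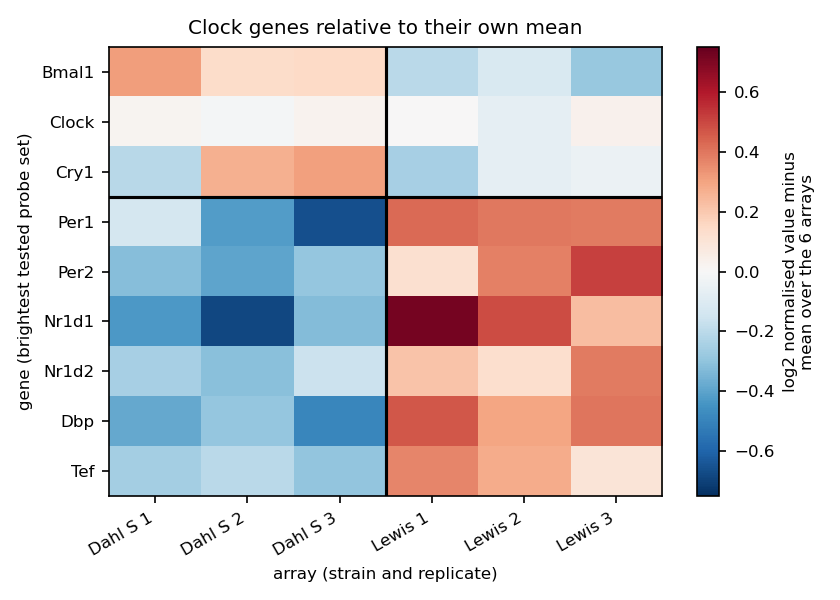
Log2 normalised value of each of 9 clock genes (rows, brightest tested probe set) on each array (columns), minus the mean of that gene over the 6 arrays; red is above and blue below the mean. The lower block of 6 genes is blue on every Dahl S array and red on every Lewis array, and of the upper block only Bmal1 separates the strains without overlap.

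Other genes of the clock were taken from a list of 23, of which 15 had a tested probe set. By their brightest probe set 2 were higher in Dahl S, 1 was lower and 12 did not pass, with a median of -0.03. This share called is near the 16.7% of all genes, so the count says nothing particular of the list. Nfil3, a repressor that competes with DBP and TEF for D-boxes and is most abundant at the opposite time of day, read 157, 150.2 and 141 in Dahl S, against 87.4, 87.9 and 83.5 in Lewis. The strains were far apart, with a difference of 0.69 (SE 0.11, adjusted p = 0.00088). Hlf, the third PAR bZIP gene, read 261, 280.3 and 310.4 in Dahl S, against 385, 362 and 431 in Lewis (-0.45, SE 0.10, adjusted p = 0.0093), a call lost without Dahl S array 1 (-0.39, adjusted p = 0.056).

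Further probe sets of Hlf gave -0.50 (adjusted p = 0.0037) and -0.30 (adjusted p = 0.077). The third gene called was Nono, an RNA-binding protein gene whose product has been found with Period proteins (0.40, SE 0.07, adjusted p = 0.0017), but its other probe set gave 0.01 (adjusted p = 0.97). Npas2, a paralogue of Clock that partners BMAL1, did not pass (0.35, SE 0.17, adjusted p = 0.19) and its ranges overlapped, with 107, 158 and 166 in Dahl S and 135, 100.4 and 90.2 in Lewis. Cry2 differed by -0.25 (SE 0.11, adjusted p = 0.17), Bhlhe40 by -0.29 (SE 0.10, adjusted p = 0.077), Bhlhe41 by -0.03 (SE 0.13) and the ROR gene Rora by -0.03 (SE 0.11). None of these passed. A dimmer probe set of Cry2 did not pass (-0.47, SE 0.16, adjusted p = 0.067), and it met the filter through the Lewis arrays alone. It passed without Dahl S array 2 and without a variance trend (adjusted p = 0.039 in each). The casein kinase and ubiquitin ligase genes that set the stability of PER and CRY proteins, among them Csnk1d, Csnk1e, Btrc and Fbxw11, did not pass either.

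Genes that the clock is known to drive were lower in Dahl S wherever they passed the test. Of 20 listed output genes 16 were tested, and 8 were lower in Dahl S and 8 did not pass, with a median of -0.32, against 7.62% lower and 9.04% higher of all genes. Usp2, a deubiquitinase gene with a strong daily rhythm in many tissues, read 205, 235 and 195 in Dahl S, against 649, 543.5 and 438.5 in Lewis. It was 2.43-fold lower (-1.28, SE 0.13, adjusted p = 3.2e-05), and its other probe set gave -1.94 (SE 0.20, adjusted p = 3e-05). That other probe set exceeded the overall median on all 3 Lewis arrays but on only 2 Dahl S arrays, so the filter favoured a difference in it. The P450 reductase gene Por gave -0.50 (SE 0.08, adjusted p = 0.001) and the gluconeogenic gene Pck1 -0.49 (SE 0.05, adjusted p = 2.5e-05).

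The sodium-hydrogen exchanger gene Slc9a3 differed by -0.68 (SE 0.09, adjusted p = 0.00019) and Scnn1a, the epithelial sodium channel alpha subunit, by -0.52 (SE 0.16, adjusted p = 0.042). The Scnn1a call was lost without any 1 array other than Lewis array 3, and a dimmer probe set of it did not pass (-0.47, adjusted p = 0.17). This dimmer probe set exceeded the overall median on all 3 Lewis arrays but on only 1 Dahl S array. The cotransporter genes Slc12a1 (0.06, adjusted p = 0.61) and Slc12a3 (-0.40, adjusted p = 0.26), which are on no clock list, did not pass. The count of output genes lower was 6 without any 1 Dahl S array. Nampt (0.02, SE 0.11), Tspan4 (0.12, SE 0.12) and Wee1 (-0.34, SE 0.11, adjusted p = 0.062), which are also rhythmic in many tissues, did not pass.

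**Figure D4:**
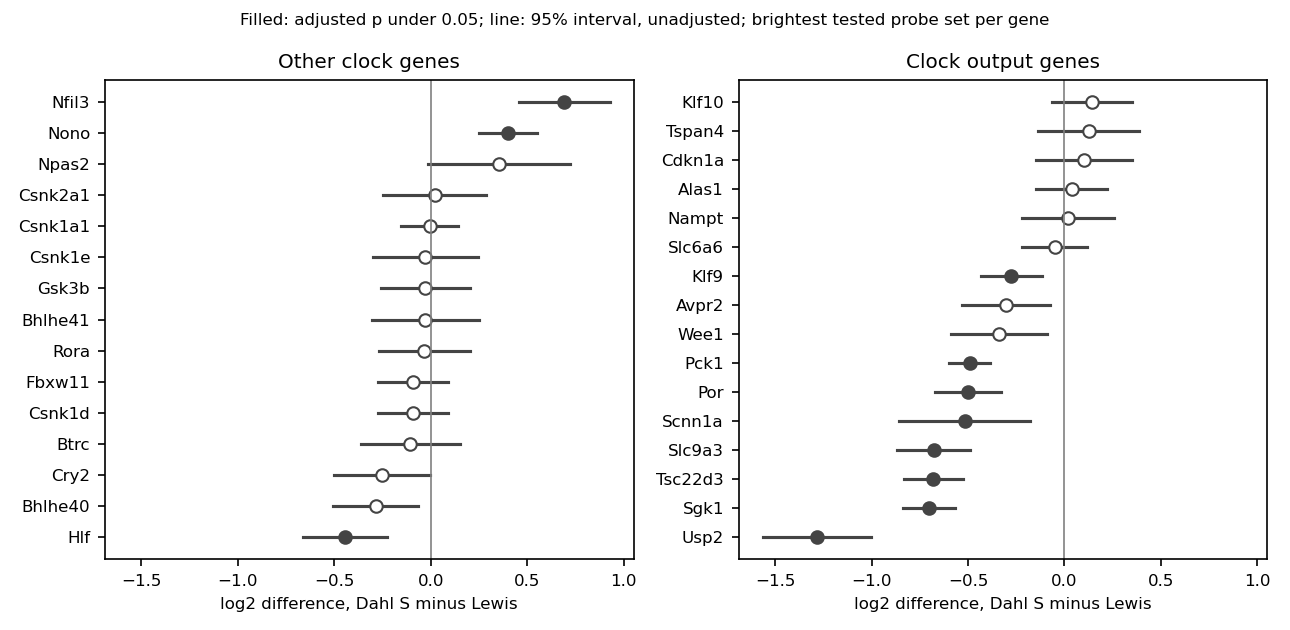
Log2 difference, Dahl S minus Lewis, of 15 other clock genes (left) and 16 clock output genes (right), each by its brightest tested probe set with its 95% interval; filled points passed an adjusted p of 0.05. Nfil3 and Nono lie above 0 and Hlf below it on the left, and on the right all 8 filled points lie below 0, with Usp2 at -1.28.

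Per1 belongs as well to the genes that glucocorticoids induce. Of 8 tested genes of that list, Per1 included, 6 were lower in Dahl S and 2 did not pass, with a median of -0.48. Of all genes, 7.62% were lower and 9.04% higher. Fkbp5 differed by -0.79 (SE 0.11, adjusted p = 0.00033), Sgk1 by -0.70 (SE 0.06, adjusted p = 1.1e-05), Tsc22d3 by -0.68 (SE 0.07, adjusted p = 3.8e-05), Klf9 by -0.28 (SE 0.07, adjusted p = 0.021) and Errfi1 by -0.26 (SE 0.06, adjusted p = 0.016). The Klf9 call was lost without any 1 Dahl S array (adjusted p 0.053 to 0.099) and without a variance trend (0.069), its difference was 0.11 in the deposited values without normalization, and its other probe set gave -0.02. Sgk1, Tsc22d3 and Klf9 are on the output list too, so these counts overlap. The part of glucocorticoid input in the clock differences was not tested.

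Per1 and Per2 can also be induced quickly through the cyclic AMP element, together with immediate-early genes. Of 10 tested immediate-early genes 6 were higher in Dahl S (Fos, Egr1, Atf3, Junb, Ier2 and Jun) and 4 did not pass, with a median of 0.60. Over all genes 9.04% were higher and 7.62% lower, 16.7% in all. The part of this input in the Per1 and Per2 differences was not tested. Fos read 190, 215 and 235 in Dahl S, against 15.0, 22.5 and 23.7 in Lewis (2.66, SE 0.14, adjusted p = 1.5e-07). Fos and Atf3 met the filter on low values through the Dahl S arrays alone, so they had to differ. Of 5 tested genes that follow the daily body temperature rhythm, Cirbp, a cold-inducible RNA-binding protein gene, was lower in Dahl S (-0.60, SE 0.15, adjusted p = 0.015), Dnajb1, a heat shock co-chaperone gene, was higher (0.26, SE 0.08, adjusted p = 0.036), and 3 did not pass. With 5 genes tested, this count says little beside the 16.7% called of all genes. The Cirbp call was lost without Dahl S array 1 or 3 (adjusted p = 0.063 and 0.07), and another of its probe sets gave -0.18 (adjusted p = 0.44). The third gave -0.71 (adjusted p = 0.0058; 0.0018 to 0.032 with any 1 array left out) but met the filter through the Lewis arrays alone. The Dnajb1 call was lost when arrays were scaled by their medians instead (adjusted p = 0.086), without a variance trend (0.071), with the replicate block (0.058) and without any 1 array other than Lewis array 1.

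The genes whose values over the 6 arrays were closest to those of Dbp, by Euclidean distance of mean-centred log2 values, were Hacl1 (0.07), Susd2 (0.16), Slc52a3 (0.16), Ccdc6 (0.16) and Aqp4 (0.17). None of them is on the clock lists.

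Markers of other cell types also differed between the strains. The shares over all genes were 9.04% higher in Dahl S and 7.62% lower. All 6 tested leukocyte markers were higher in Dahl S, with a summed normalised intensity, over 7 measured markers, of 1594 to 1658 in Dahl S and 927 to 1088 in Lewis. All 3 erythrocyte markers were higher, with sums of 5718 to 6246 in Dahl S and 3979 to 5137 in Lewis. Markers of the proximal tubule were bright in both strains, as whole kidney would have them, with sums of 17829 to 18423 in Dahl S and 19551 to 20069 in Lewis. By the brightest probe set 1 of 5 was lower in Dahl S (Slc22a6, -0.69, adjusted p = 0.00019). A dimmer probe set of Slc34a1 was lower too (-0.62, adjusted p = 0.0022), but its brightest did not pass (-0.06, adjusted p = 0.53). Among thick ascending limb and podocyte markers none passed by the brightest probe set. Distal and collecting duct markers summed to 10426 to 10775 in Dahl S and 11778 to 12262 in Lewis, with 1 of 4 lower (Aqp3, -0.29, adjusted p = 0.017). Endothelial markers summed to 1258 to 1340.5 in Dahl S and 1419.5 to 1490.4 in Lewis, with 1 of 3 lower (Pecam1, -0.40, adjusted p = 0.027). No measured marker of these lists was at 0 on any array, and the part of cell makeup in the clock differences was not tested. Before normalization the median deposited intensity of an array was 63.4 to 81.2 in Dahl S and 38.9 to 69.7 in Lewis.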

How the data were processed

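RNA of whole kidneys from 3 Dahl S rats and 3 Lewis rats was measured on 1 array each, and groups and replicate numbers were read from the sample titles. The authors deposited 1 linear intensity for each of 31099 probe sets, made with GeneChip Operating Software 1.4 per the labels' design text; for the background step, scaling target and detection calls nothing is given in the sources used here. This deposited table states no signal over background, and the number of arrays limits the precision.

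From these values 57 control probe sets were left out, log2(intensity + 16) was quantile-normalized, and the 15797 probe sets that exceeded the overall median on 3 or more of the 6 arrays were kept. The pseudocount understates differences of dim genes, and printed intensities are the normalised values with it subtracted. The strains were compared with limma 3.58.1 (R 4.3.3; Dahl S minus Lewis, variance trend, two-sided, Benjamini-Hochberg over all tested probe sets, threshold 0.05). On simulated data (15676 probe sets tested) the fit recovered 47.8% of log2 changes of 0.5, 88.1% of 1 and 100% of 2. The simulation had 162 calls against 2567 in the data, so these rates do not give the power of the comparison reported.

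Gene names came from the platform annotation, updated through gene identifiers to RefSeq (GRCr8), and only probe sets with a single symbol were named. Probe sequences that differ between strains were not masked. The members and gene lists were chosen with earlier results of these data known. Every member was named; from the other lists the called genes and a fixed few others were named, and some uncalled genes (Rora, Wee1, Nampt, Tspan4 and the kinase and ligase genes) were chosen after their values were seen. Alternatives changed the pseudocount, normalization, filter, variance model, replicate block and the arrays included.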

Additional observations from a re-analysis of the deposited data

How the results depend on the processing

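Of 205 values of single clock probe sets under 14 alternatives, 186 kept their direction and their side of the threshold, 11 were no longer called, 4 became called and 4 changed sign. The changes of sign were all in uncalled Clock probe sets: 1380098_at gave 0.30 and 1389456_at 0.32 in the deposited values without normalization, and with any 1 array left out 1380098_at ran from -0.18 to 0.0091 (above 0 without Dahl S array 2) and 1390199_at from -0.0058 (without Lewis array 2) to 0.043. Without normalization, where the median of all probe sets was 0.41, limma called 0 clock probe sets higher and 0 lower (2 and 1 at an unadjusted p under 0.05), against 1 and 9; among other clock genes it called 1 higher and 0 lower (3 and 0 unadjusted), and among output genes 0 lower (1 unadjusted), against 8. In that setting 93.4% of all calls were higher in Dahl S, against 52.3% after quantile normalization (666 higher and 47 lower, against 1343 and 1224). The cause of the unequal array levels was not tested.

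With any 1 array left out, 0 to 1 clock probe sets were higher and 9 to 10 lower, 2 other clock genes were higher and 0 to 1 lower (0 without Dahl S array 1), and 6 to 9 output genes were lower. The 1 higher was lost without Dahl S array 1 or 3. With the replicate block, 1 clock probe set was higher and 9 were lower, 2 other clock genes higher and 1 lower, and 8 output genes lower, so it moved none of these counts, though Dnajb1 lost its call. Deviations of same-numbered arrays from their strain means correlated at -0.05, -0.10 and 0.11, only those numbered 3 correlated best with their own number, and the numbers were not taken as pairs. Over all probe sets the block gave 1295 higher and 1199 lower. The stricter filter (above the median on all 6 arrays) left 6 clock probe sets lower, since it tests fewer dim ones. Leaving out a Dahl S array lowered the calls over all probe sets: 806 higher with 772 lower (array 1 left out), 834 with 804 (array 2) and 764 with 727 (array 3). Without Lewis array 2 they fell too (1094 with 958), but without Lewis array 1 (1451 with 1336) or array 3 (1444 with 1344) they rose. Arrays correlated at 0.9909 to 0.9929 within Dahl S and at 0.98 to 0.9881 within Lewis.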
